A study of Mus musculus with 6 samples.

Results

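V(D)J recombination is the cutting and rejoining of gene segments by which developing B and T cells build the genes of their antigen receptors. Of 10 genes listed for the reaction, 9 had a probe set of their own on the arrays and are described here, out of 19938 genes tested in all. They are Rag1, Rag2, Dntt, Lig4, Xrcc4, Prkdc, Xrcc5, Xrcc6 and Nhej1, chosen by name, and each was read by 1 probe set. Dclre1c, which encodes the hairpin-opening nuclease Artemis, was not analysed here.

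Expression was measured on 6 Affymetrix arrays of total RNA from pre-B cells of mouse strain 129P2/OlaHsd that BCR-ABL1, the fusion kinase of Philadelphia chromosome-positive leukaemia, had transformed. Both groups were heterozygous for a floxed Ptpn6 allele (Ptpn6 +/fl), were resistant to puromycin, and had been given 4OH-Tamoxifen at 0.5 micromolar for 2 days. The 3 control arrays came from cells transduced with PMIP-ERT2, a vector with the tamoxifen-binding domain and no recombinase, and the other 3 from cells transduced with PMIP-CRE-ERT2, which joins that domain to Cre. The series asks about the role of Ptpn6, the gene for the tyrosine phosphatase SHP-1. The unfloxed allele stays whole when Cre acts, and the presence of Cre and its action on the floxed allele cannot be told apart in these groups. The promoters of the vectors and the number of clones or mice behind the cells are not given in the sources used here. The labels do not say that the arrays of a group are separate cultures, so p-values measure how far these samples spread, and that spread may be technical only.

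The reaction has a cutting step and a joining step. The RAG1 and RAG2 proteins together recognise the signal sequences beside each segment and cut there, and both are made mainly in lymphoid precursors. The ends are joined by the classical non-homologous end-joining machinery that all cells use for broken DNA: the Ku proteins hold the ends, the kinase DNA-PKcs gathers at them, Artemis opens the hairpins, and XRCC4, XLF and DNA ligase IV seal the break. Terminal deoxynucleotidyl transferase, the product of Dntt, adds nucleotides without a template before the ends are sealed and so widens receptor diversity.

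The libraries matched the labelled cell type. Of 10 pre-B cell markers, 9 were measured, with a median log2 expression of 13.70, against 8.21 over all genes, 8.35 for mature B cell, 7.77 for T cell, 7.73 for erythroid, 7.43 for stromal, 7.11 for myeloid and 6.39 for NK cell markers. Probe sets differ in how strongly they respond, so this is a rough check. Ptpn6 was 11.34 ± 0.08 in the control arrays and 11.27 ± 0.08 in the CRE-ERT2 arrays (SD, n = 3 each; limma adjusted p = 0.759), and where its probe set lies relative to the floxed part is not known here. In the same comparison, 914 genes (4.58%) passed at an adjusted p under 0.05 with limma, 459 higher (2.30%) and 455 lower (2.28%), and the median change of all genes was -0.03. With 3 arrays per group, precision is set by their number.

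One gene of the cutting step fell and the nucleotide-adding enzyme rose, while no gene of the end-joining machinery passed. Rag2 was lower in the CRE-ERT2 arrays by 0.53 ± 0.09 on the log2 scale (SE), a level 0.693 times that of the controls. Dntt was higher by 0.48 ± 0.08 (SE), or 1.39-fold. Rag1 and the 6 end-joining genes measured did not pass. This was 2 of 9 members (22.2%), beside 4.58% of all genes, a count too small to set the list apart. The same 2 were the members with an unadjusted p under 0.05 (16.4% of all genes) and those whose groups did not overlap (22.5% of all genes). The median change of the 9 was -0.08.

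**Figure D1:**
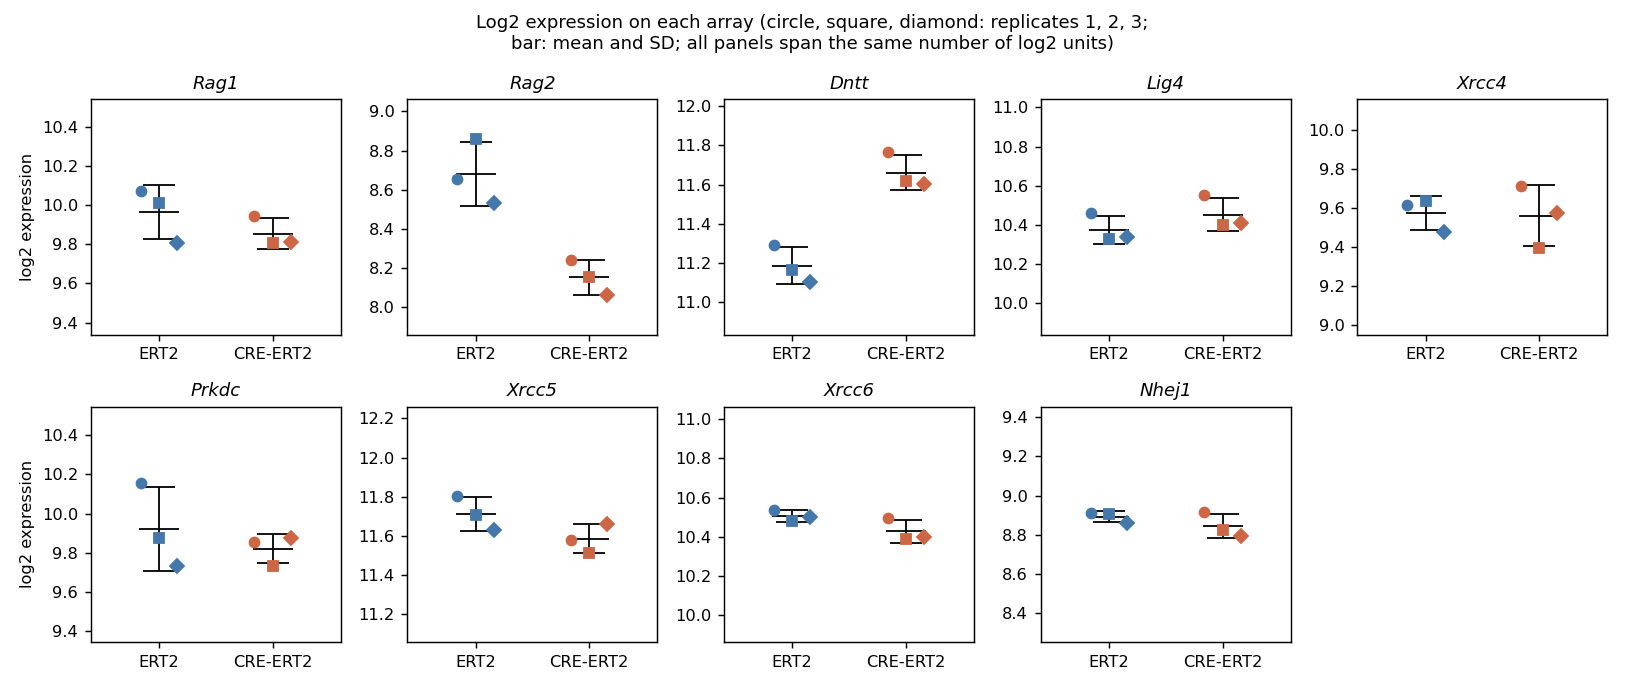
Log2 expression of the 9 genes on each array (vertical axes; circle, square and diamond are replicates 1, 2 and 3; bars are mean and SD), for the ERT2 and CRE-ERT2 groups. The groups lie apart for Rag2 and for Dntt, in opposite directions, and overlap for the other 7 genes.

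The upstream sequences of Rag2, Rag1 and Dntt are shown because these genes are switched on in lymphoid precursors in part by E proteins. E proteins are transcription factors that bind E-boxes. Whether they or their inhibitors had a part in the changes of Rag2 and Dntt was not tested. Each run is the 250 bases before the annotated start in the RefSeq GRCm38.p6 assembly (strain C57BL/6J, not the strain of the cells), with every E-box, CANNTG on either strand, in capitals. They are chr2:101624462-101624711 on the plus strand for Rag2, chr2:101649533-101649782 on the minus strand for Rag1 and chr19:41029025-41029274 on the plus strand for Dntt.

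Rag2: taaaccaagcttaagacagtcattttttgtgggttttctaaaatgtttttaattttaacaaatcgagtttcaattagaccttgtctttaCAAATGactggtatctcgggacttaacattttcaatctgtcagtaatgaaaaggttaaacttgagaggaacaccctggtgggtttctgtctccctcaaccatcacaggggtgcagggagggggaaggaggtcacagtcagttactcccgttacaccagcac

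Rag1: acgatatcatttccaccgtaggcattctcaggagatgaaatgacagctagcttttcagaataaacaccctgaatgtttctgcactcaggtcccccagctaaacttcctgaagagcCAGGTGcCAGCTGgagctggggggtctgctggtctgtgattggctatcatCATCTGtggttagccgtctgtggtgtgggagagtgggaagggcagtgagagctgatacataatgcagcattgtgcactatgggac

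Dntt: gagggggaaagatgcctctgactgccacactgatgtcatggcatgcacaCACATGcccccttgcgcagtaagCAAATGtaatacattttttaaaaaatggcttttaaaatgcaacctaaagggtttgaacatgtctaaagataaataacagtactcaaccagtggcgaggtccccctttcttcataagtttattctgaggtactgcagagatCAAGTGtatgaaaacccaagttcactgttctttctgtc

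The Rag2 window holds 1 E-box, which begins 161 bases before the start. The Rag1 window holds 3, at 135, 128 and 85 bases, and the Dntt window holds 3, at 201, 178 and 38 bases. An E-box is common: 66.2% of 32851 promoter windows of this length hold at least 1. A FOXO motif, TGTTTAC, and a GFI1 core motif, AAATCA, searched on both strands, were in none of the 3 windows, and in 3.17% and 12.4% of all windows. A match is a description of these letters and not a measured binding site.

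Rag2 encodes the partner that reads histone marks at open chromatin and that the cutting complex cannot do without. Its log2 expression was 8.65, 8.86 and 8.53 in ERT2 replicates 1 to 3 and 8.24, 8.16 and 8.06 in CRE-ERT2 replicates 1 to 3. Every CRE-ERT2 array lay below every control array. The group means were 8.68 ± 0.16 and 8.15 ± 0.09 (SD, n = 3 each), and the 95% confidence interval of the change ran from -0.73 to -0.33 (limma adjusted p = 0.00426). In size it was the 101st largest of the decreases, and 1.40% of all genes changed at least as much in either direction. Permuting the group labels over the arrays (exact, two-sided) gave p = 0.1, the smallest value that 3 against 3 allow.

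Rag1 encodes the subunit that holds the catalytic site. Its values were 10.07, 10.01 and 9.81 in the controls and 9.94, 9.81 and 9.81 in the CRE-ERT2 arrays. The groups overlapped, since the lowest control lay among the CRE-ERT2 values. The change was -0.11 with an interval from -0.30 to 0.07 (limma adjusted p = 0.614), so a fall to 0.815 of the control level remains within the interval, and one as large as the fall of Rag2 does not.

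Whether the 2 subunits changed by unequal amounts was tested on the log2 ratio of Rag2 to Rag1 within each array. The ratio fell by 0.42 (SE 0.08) from the control to the CRE-ERT2 arrays, and the groups did not overlap. Relative to the control mean, the ratio spanned -0.14 to 0.13 in the controls and -0.47 to -0.37 in the CRE-ERT2 arrays. The two-sided exact permutation p was 0.1, the smallest value that 3 against 3 allow. All 3 pairs of Rag1, Rag2 and Dntt compared had this value, so adjustment over them left it at 0.1. The test could therefore not show that the changes were unequal. Rag2 alone also separated the groups, so the separation of the ratio is not independent of it.

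The Rag genes lie side by side on opposite strands in the GRCm38.p6 gene table, with no other gene tested between them. By order of start position, and not by distance, 4 tested genes were taken from both sides of them. Iftap changed by -0.12, Lrrc4c by -0.11 and Prr5l by -0.09. Traf6, which encodes a ubiquitin ligase of receptor signalling, changed by -0.15. None of the 4 passed (limma adjusted p from 0.365 for Traf6 to 0.714 for Iftap). At an unadjusted p under 0.05 there was also none, and the fall at this place was called for Rag2 alone, with the difference from its neighbours not tested. Iftap, Prr5l and Lrrc4c were dim, with control means of 5.70, 6.13 and 7.21 against a median of 8.21 over all genes. Small changes of such genes may be understated. Traf6, with a control mean of 11.82, was lower in every CRE-ERT2 array than in any control, as were 15.5% of all genes.

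Dntt went the other way. Its log2 expression was 11.29, 11.16 and 11.10 in ERT2 replicates 1 to 3 and 11.77, 11.62 and 11.60 in CRE-ERT2 replicates 1 to 3. The lowest CRE-ERT2 array lay above the highest control. The means were 11.19 ± 0.10 and 11.66 ± 0.09 (SD, n = 3 each), with an interval of the change from 0.30 to 0.65 (limma adjusted p = 0.00369). The increase was the 215th largest, and 1.74% of all genes changed at least as much in either direction. Within arrays the log2 ratio of Dntt to Rag1 rose by 0.59 (SE 0.04), with an exact permutation p of 0.1, again the smallest possible. Dntt alone also separated the groups, so the separation of this ratio is not independent of it. The log2 ratio of Dntt to Rag1, relative to the control mean, was -0.07 to 0.07 in the controls and 0.57 to 0.60 in the CRE-ERT2 arrays. That of Dntt to Rag2 was -0.20 to 0.13 in the controls and 0.96 to 1.03 in the CRE-ERT2 arrays. Since each of these genes separated the groups, in opposite directions, their ratio had to separate them too. Its exact permutation p of 0.1 is therefore no further evidence.

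The calls of Rag2 and Dntt were kept in 13 of 14 alternative analyses each, with changes from -0.60 to -0.44 for Rag2 and from 0.42 to 0.53 for Dntt. Neither call held in the fit of all 35556 probe sets, in place of 1 per gene (adjusted p = 0.0911 and 0.0640). In bulk RNA, fewer cells that express a gene and less RNA per cell cannot be told apart.

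**Figure D2:**
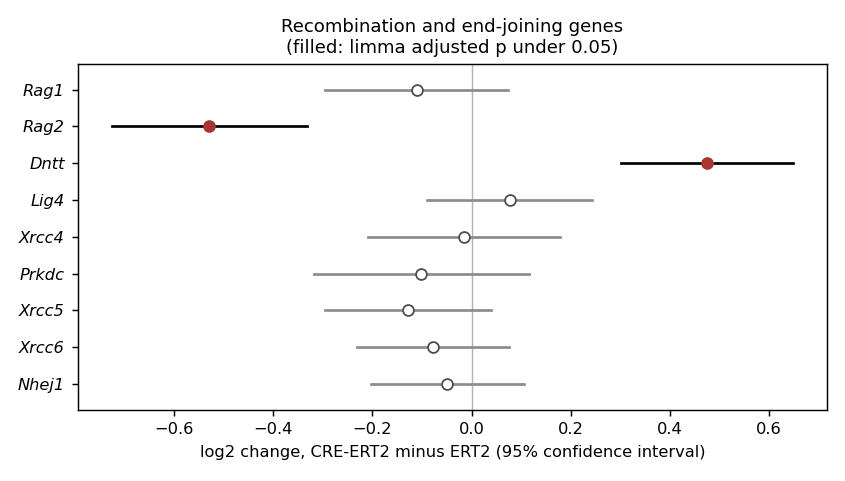
Change in log2 expression from the ERT2 to the CRE-ERT2 arrays (horizontal axis) for the 9 genes, with 95% confidence intervals as lines and filled points for adjusted p under 0.05 with limma. The intervals of Rag2 and Dntt lie on opposite sides of 0, and the other 7 cross it.

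The end-joining genes changed little. Of the 6 measured, 0 passed with limma (4.58% of all genes) and 0 had an unadjusted p under 0.05 (16.4%). With a trended, robust variance or with array weights 0 passed, beside 7.74% and 5.18% of all genes. Among 6 genes, counts of 0 are too small to set them apart from these shares. Their changes lay between -0.13 and 0.08, and their 95% confidence intervals between -0.32 and 0.24, so changes of the size seen in Rag2 and Dntt lie outside the intervals of all 6.

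Xrcc5 and Xrcc6 encode Ku80 and Ku70, which form the ring that slides onto DNA ends. Xrcc5 was 11.80, 11.71 and 11.63 in the controls and 11.58, 11.51 and 11.66 in the CRE-ERT2 arrays. Xrcc6 was 10.54, 10.48 and 10.50 in the controls and 10.49, 10.39 and 10.40 in the others. In both genes 1 CRE-ERT2 array reached into the control range. The changes of the Ku genes were -0.13 (interval -0.30 to 0.04) and -0.08 (interval -0.23 to 0.08), with limma adjusted p of 0.471 and 0.687.

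Prkdc encodes DNA-PKcs, the kinase that Ku recruits. It was 10.16, 9.88 and 9.73 in the controls and 9.85, 9.73 and 9.87 in the CRE-ERT2 arrays, with 1 control above all other values. The change was -0.10 (interval -0.32 to 0.12; limma adjusted p = 0.725), and 0.01 without that control array, ERT2 replicate 1.

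Lig4 encodes DNA ligase IV and Xrcc4 its scaffold, without which the ligase is unstable. Lig4 was 10.46, 10.33 and 10.34 in the controls and 10.55, 10.40 and 10.41 in the CRE-ERT2 arrays, a change of 0.08 (interval -0.09 to 0.24). Xrcc4 was 9.61, 9.64 and 9.47 in the controls and 9.71, 9.40 and 9.57 in the others, a change of -0.01 (interval -0.21 to 0.18). The CRE-ERT2 values of Xrcc4 spanned the whole control range. Its small change turned positive after a further quantile normalization (0.01) and with arrays centred on their medians (0.0039), so it has no direction here. Nhej1 encodes XLF, which stacks with XRCC4 along the DNA. It was 8.91, 8.91 and 8.86 in the controls and 8.91, 8.83 and 8.79 in the CRE-ERT2 arrays, a change of -0.05 (interval -0.20 to 0.11). The groups overlapped for all 3 of these genes, and their limma adjusted p lay between 0.730 for Lig4 and 0.972 for Xrcc4.

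Within each group, replicate 1 held the highest value of most members, a description with no test. ERT2 replicate 1 held the highest control value for 7 of 9 members (77.8%), where it held the highest for 44.4% of all genes. CRE-ERT2 replicate 1 was likewise highest of its group for 7 of 9 (77.8%), against 37.7% of all genes. Rag2 and Xrcc4 were highest in ERT2 replicate 2, and Prkdc and Xrcc5 in CRE-ERT2 replicate 3. Without ERT2 replicate 1, Rag2 changed by -0.54 and Dntt by 0.53, and both still passed (limma adjusted p = 0.0275 and 0.00852). Without CRE-ERT2 replicate 1 they changed by -0.57 and 0.42 and also passed (0.0132 and 0.0253).

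Accessory factors of classical end joining did not pass either. Of 10 measured, 0 passed with limma, 3 had an unadjusted p under 0.05, all lower (16.4% of all genes in either direction), and 2 passed with a trended, robust variance (7.74% of all genes). The median change was -0.07. The smallest p belonged to Tdp1 (-0.23, adjusted p = 0.104) and Tdp2 (-0.25, 0.120), phosphodiesterases that clean blocked DNA ends.

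Genes listed for alternative end joining and single-strand break ligation were lower by small amounts that did not pass. Alternative end joining joins ends when the classical route fails. The list mixes genes of both processes, which were not separated here. Of 11 measured, 0 passed with limma, and 7 had an unadjusted p under 0.05, all lower, beside 16.4% of all genes in either direction. All 11 were lower in every CRE-ERT2 array than in any control array, where 15.5% of all genes were (22.5% in either direction). The changes ran from -0.30 to -0.10, with a median of -0.22. Mre11a, the nuclease that starts the trimming of ends, was 11.46, 11.32 and 11.25 in the controls and 11.10, 11.00 and 11.07 in the CRE-ERT2 arrays (-0.29, limma adjusted p = 0.0571). Exo1, which extends the trimming, was 11.17, 11.07 and 11.06 against 10.89, 10.81 and 10.81 (-0.27, limma adjusted p = 0.0575). In this list 4 genes passed when the dimmest genes (a share of 0.333) were left out, 4 with a trended, robust variance, 2 without ERT2 replicate 3 and 1 with array weights. Of all genes tested, 9.48%, 7.74%, 4.91% and 5.18% passed in these settings.

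Chromatin signalling at double-strand breaks, which marks the break and holds the ends near each other, showed 0 of 13 genes past the threshold. With limma, 2 had an unadjusted p under 0.05 (16.4% of all genes). With a trended, robust variance or array weights 0 passed, beside 7.74% and 5.18% of all genes. The smallest p belonged to the checkpoint kinase gene Chek2 (-0.22, adjusted p = 0.174) and the ubiquitin-conjugating enzyme gene Ube2n (0.20, 0.284), in opposite directions. The median change was -0.11. Of the listed cofactors and turnover factors of the RAG proteins, 0 of 10 passed with limma, 2 had an unadjusted p under 0.05 (16.4% of all genes) and 2 passed with a trended, robust variance (7.74%). The smallest p belonged to Skp2 (-0.23, adjusted p = 0.111), the ubiquitin ligase subunit through which RAG2 is destroyed as cells enter S phase, and to the nuclear import gene Kpna1 (-0.24, 0.112). The DNA-bending cofactor genes Hmgb1 and Hmgb2 changed by -0.09 and -0.05 and did not pass (limma adjusted p = 0.709 and 0.841).

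**Figure D3:**
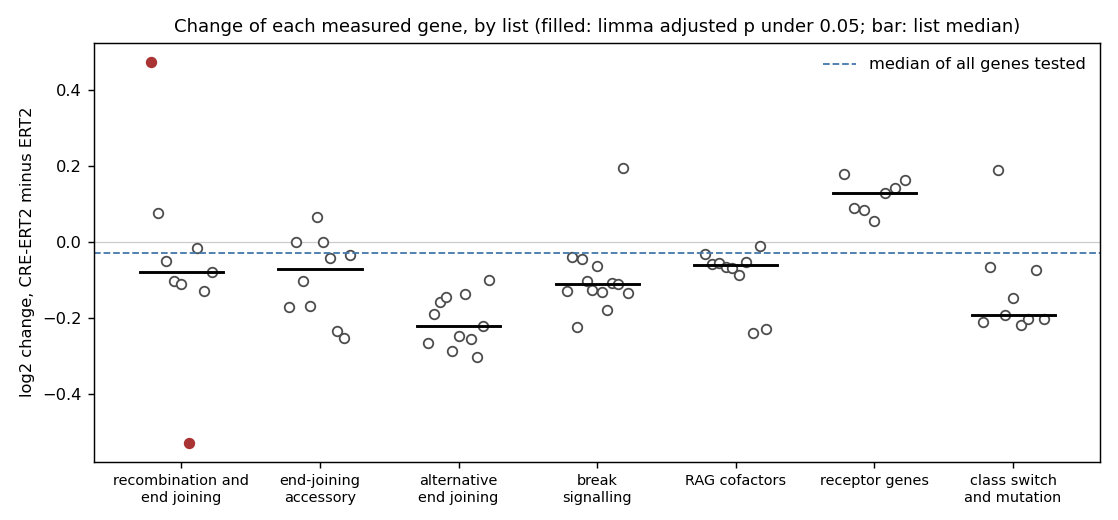
Change in log2 expression from the ERT2 to the CRE-ERT2 arrays (vertical axis) for each measured gene of 7 lists (horizontal axis); black bars are list medians, the dashed line is the median of all genes, and filled points passed with limma. The filled points are Rag2 and Dntt. Below the dashed line lie all 11 genes of the alternative end joining list, 12 of 13 for break signalling and 9 of 10 RAG cofactors. So do 8 of 9 genes for class switch and mutation, 7 of 10 accessory genes, 6 of 9 members and 0 of 7 receptor genes.

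Among 29 transcription factors known to act on Rag or Dntt expression and inhibitors of such factors, all of them measured, 2 rose, 2 fell and 25 did not pass (13.8% called, beside 4.58% of all genes). The genes were Id2 and Spib, which rose, and Gfi1b and Id3, which fell. The median change was 0.02. An unadjusted p under 0.05 was found for 8 of the 29, 5 higher and 3 lower (16.4% of all genes in either direction). With a trended, robust variance 5 passed (7.74% of all genes). The groups of 13 did not overlap, 6 of them lower (44.8%, beside 22.5% of all genes in either direction). The counts are small, and the list was chosen with earlier results of these data known, so these shares do not set it apart. With all probe sets tested, 1 of the 29 kept its call, Id2.

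Id2 and Id3 encode inhibitors that bind E proteins and keep them off DNA, and they moved in opposite directions. Id2 was 10.28, 10.33 and 10.17 in the controls and 11.30, 11.01 and 11.07 in the CRE-ERT2 arrays, a 1.83-fold increase (0.87 ± 0.09, SE; limma adjusted p = 6.59e-05). The groups of Id2 lay well apart, and its call was kept in 14 of 14 alternatives. Id3 was 9.77, 10.17 and 10.10 in the controls and 9.71, 9.56 and 9.54 in the others (-0.41 ± 0.10, SE; limma adjusted p = 0.0401). The first control array lay close to the CRE-ERT2 values of Id3, and its call was lost in 8 of 14 alternatives, among them a further quantile normalization (0.0723) and the run without CRE-ERT2 replicate 3 (0.196).

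Spib encodes an ETS factor of the B lineage that is related to PU.1. It was 10.84, 11.31 and 11.25 in the controls and 11.81, 11.74 and 11.69 in the CRE-ERT2 arrays (0.62 ± 0.11, SE; limma adjusted p = 0.00521). Gfi1b encodes a repressor that acts on the Rag locus in B cell precursors. It was 11.54, 11.74 and 11.76 in the controls and 11.37, 11.23 and 11.21 in the CRE-ERT2 arrays (-0.41 ± 0.08, SE; limma adjusted p = 0.0133). The call of Gfi1b was lost without CRE-ERT2 replicate 3 (0.0947), and those of Spib and Gfi1b with all probe sets tested (0.119 and 0.124).

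**Figure D4:**
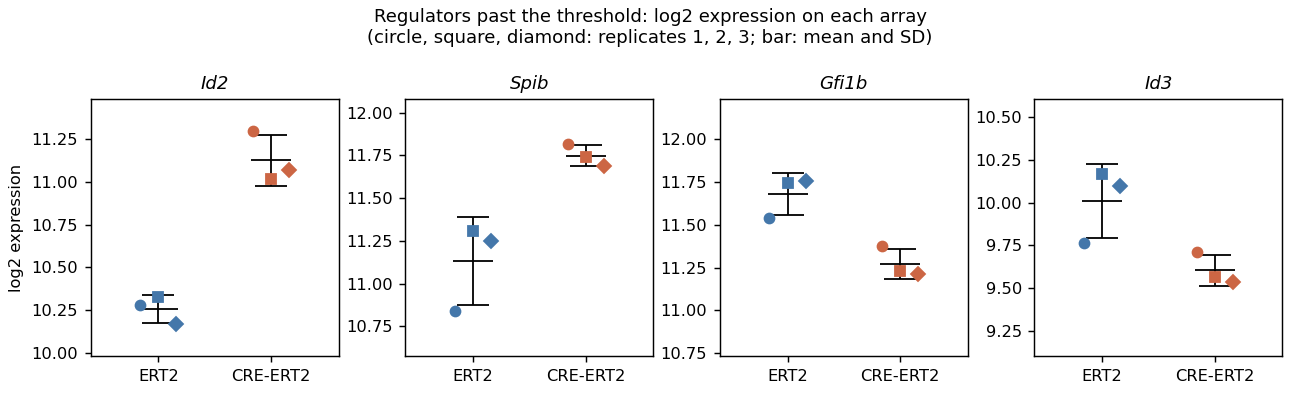
Log2 expression on each array (vertical axes; circle, square and diamond are replicates 1, 2 and 3; bars are mean and SD) of Id2, Spib, Gfi1b and Id3. The 3 CRE-ERT2 arrays lie above all controls for Id2 and Spib, and below all controls for Gfi1b and Id3.

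The activators best known for the Rag locus did not pass. Foxo1, which binds a Rag enhancer, changed by -0.06 (limma adjusted p = 0.769), with an interval from -0.21 to 0.09. The E protein gene Tcf3 changed by -0.06 (0.749), Ebf1 by 0.02 (0.942) and Ikzf1 by -0.01 (0.986). The mean of Pax5 was 12.57 in both groups. Foxo1 and Tcf3 were nonetheless lower in every CRE-ERT2 array than in any control, as were 15.5% of all genes. The groups overlapped for Ebf1, Ikzf1 and Pax5. These genes were picked from the 29 for their roles and do not stand for the other regulators.

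**Figure D5:**
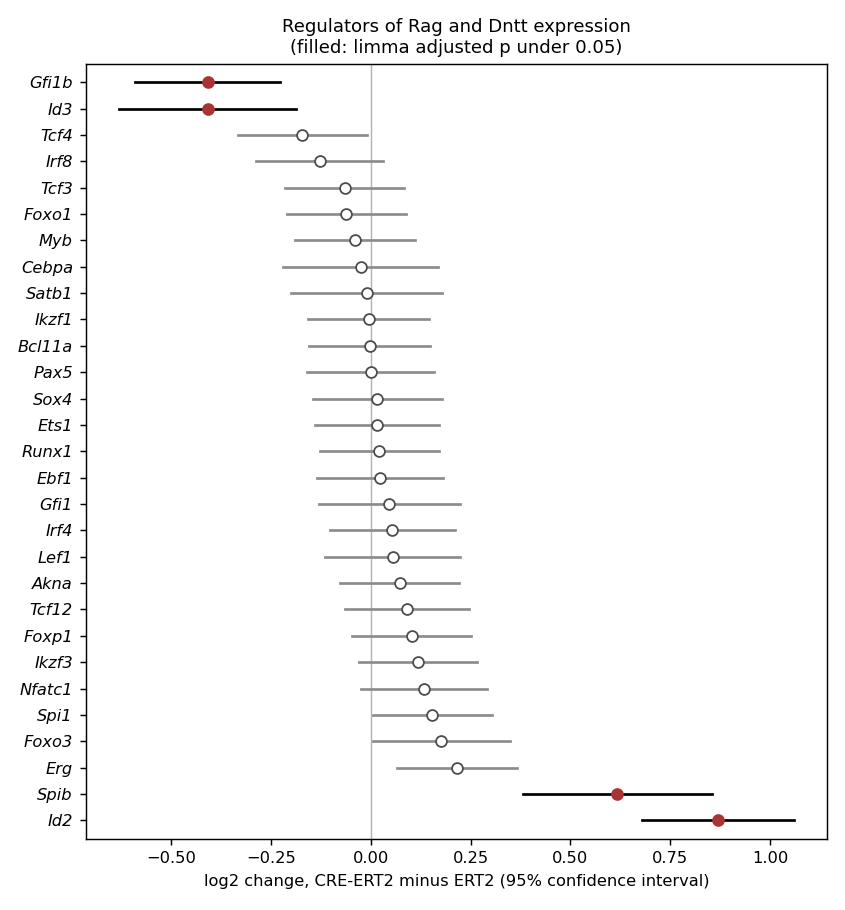
Change in log2 expression from the ERT2 to the CRE-ERT2 arrays (horizontal axis) with 95% confidence intervals for 29 regulators, in order of change; filled points passed with limma. The filled points are Gfi1b and Id3 at the top, both negative, and Spib and Id2 at the bottom, both positive.

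Receptor genes did not pass either. Of 12 immunoglobulin, surrogate light chain and receptor signalling genes listed, 7 were measured. None of these passed with limma (4.58% of all genes), and 0 had an unadjusted p under 0.05 (16.4%). With a trended, robust variance or with array weights 0 passed, beside 7.74% and 5.18% of all genes. The groups of 4 of the 7 did not overlap, 0 of them lower (57.1%, beside 22.5% of all genes in either direction). All 7 were slightly higher, by 0.06 to 0.18, with Cd79a (0.18, limma adjusted p = 0.343), a signalling chain of the receptor, and the surrogate light chain gene Vpreb2 (0.14, 0.457) as examples. Of the immunoglobulin constant genes listed, only Ighm was measured. It was at 7.91 in the controls and 7.99 in the CRE-ERT2 arrays, below the median of 8.21 over all genes. Ighm has 3 probe sets, and the one with the highest mean was used. Ighd and the light chain constant genes were not analysed here, so little is known of the genes that the reaction assembles.

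Some markers of mature B cells differed between the groups, and their part in the changes of Rag2 and Dntt was not tested. Of 7 measured, 3 rose, 0 fell and 4 did not pass, beside 2.30% of all genes that rose: the chemokine receptor genes Ccr7 (0.95) and Cxcr5 (0.63) and the inhibitory receptor gene Cd22 (0.37), with limma adjusted p from 6.37e-06 to 0.0271. The mean log2 level of the 7 was 7.87 to 7.93 in the controls and 8.14 to 8.17 in the CRE-ERT2 arrays. Of the 4 that did not pass, the complement receptor gene Cr2 was lower in every CRE-ERT2 array than in any control (-0.28, limma adjusted p = 0.0767). Ms4a1, which encodes CD20, was at 5.76 and 5.73 in the 2 groups, Fcer2a, which encodes CD23, at 6.95 and 7.04, and Cd40 at 8.30 and 8.40. Of 9 pre-B cell markers 0 passed with limma (4.58% of all genes) and 1 had an unadjusted p under 0.05 (16.4%). All 9 changes were above 0, from 3.33e-05 to 0.21. The groups of 5 did not overlap, 0 of them lower (55.6%, beside 22.5% of all genes in either direction). The mean level of the 9 was 13.07 to 13.14 in the controls and 13.19 to 13.21 in the CRE-ERT2 arrays. T cell markers had 0 of 10 past the threshold with limma (1 at an unadjusted p under 0.05), with mean levels of 7.84 to 7.96 and 7.85 to 7.89.

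Genes with the most similar pattern were found by the root mean square difference of the 6 array values, each centred on the gene's own mean. Closest to Rag2 were the sialyltransferase gene St6gal1 (difference 0.0556), the calpain gene Capn2 (0.0628) and Phf19 (0.0671), a gene of the Polycomb complex. They changed by -0.52, -0.52 and -0.58. Closest to Dntt were Fstl1 (difference 0.0326), the growth factor receptor gene Flt3 (0.0329) and the death receptor gene Tnfrsf10b (0.0385), which changed by 0.53, 0.53 and 0.42. Closest to Rag1 were Glt8d1 (0.00883), Cops5 (0.0188) and Tsga10 (0.0197), which changed by -0.11, -0.12 and -0.11. Predicted and clone-named genes, and olfactory, vomeronasal and antigen receptor segment genes, were passed over, so a closer one may exist. Each comparison was over 6 arrays, and the nearest of 19938 genes is close by the choice itself.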

How the data were processed

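The members and the gene lists were chosen with earlier results of these data known. Per the submitters' processing notes, RMA (background correction, normalization and probe summary) and Partek 6.5 were used, in roles not stated. The authors deposited log2 values per probe set, a scale read from their range. Genes were named through the platform annotation: 21789 of 35556 probe sets list 1 gene, and the one with the highest mean was kept for each of 19938 genes. Arrays were neither filtered nor normalized again. Groups were compared with limma 3.58.1 in R 4.3.3 (lmFit, eBayes, two-sided, Benjamini-Hochberg over all genes), a fit tested on simulated data. Named genes are all members and, per list, up to 4 passing genes with the largest change or the 2 with the smallest p, and 3 nearest patterns each for Rag1, Rag2 and Dntt. Activators, Hmgb genes, Rag neighbours, Cr2, Cd40, Fcer2a and Ms4a1 were added for their roles or position, Cr2 and Cd40 after their values were seen. Promoters of 9 of 10 listed genes matched RefSeq tables. Alternatives changed 1 choice at a time, except that the trended and the robust variance were set together. Scan dates and detection calls were not used here, so batches could not be tested and signal over background is unknown.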

Additional observations from a re-analysis of the deposited data

How the results depend on the processing

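The calls of Rag2 and Dntt held under the other scalings, the filter, array weights, a trended and robust variance, the replicate block and each array left out, and Ptpn6 and Rag1 passed in none of 14 alternatives. With all probe sets tested, 298 probe sets, 0 of 9 members and 1 of 89 genes of the pathway lists passed, against 914, 2 and 4, and the cause was not tested. With a trended, robust variance 1544 genes and 14 pathway genes passed, and with the dimmest genes (a share of 0.333) left out 8 pathway genes did. A further quantile normalization moved the split to 543 higher and 349 lower of 892, and centring to 523 and 399 of 922. With each array left out in turn, 453 to 979 genes passed, with 2 to 5 pathway genes and 2 members, and the change of Ptpn6 ran from -0.12 to -0.04. The 453 were without CRE-ERT2 replicate 3, 560 without ERT2 replicate 1 and 574 without CRE-ERT2 replicate 2. With the replicate number as a block 589 genes passed, with the 2 members and 3 pathway genes, and Id3 lost its call (0.0838). The labels do not say whether the numbers pair the samples. Deviations of same-numbered arrays from their group means correlated at -0.11, -0.37 and -0.07, and 0 of 3 correlated best with their own number. Arrays of unequal number correlated at -0.32 to 0.45, and 3 pairs are too few to decide whether the samples are paired. Values near background are compressed on arrays, so small changes of dim genes may be understated.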

Other observations

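Enzymes of class switch recombination and somatic hypermutation, which act later in B cell life on the same loci, were also measured. Of 9, 0 passed with limma, while 6 had an unadjusted p under 0.05, 5 of them lower (16.4% of all genes in either direction), and 1 passed with a trended, robust variance (7.74% of all genes). The median change was -0.19, beside -0.03 for all genes. The mismatch repair gene Pms2 changed by -0.22 (limma adjusted p = 0.157) and Mcm3ap, which encodes a protein of the nuclear export machinery, by -0.19 (0.173).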
